A study of Mus musculus with 2 samples.

Results

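The nuclear genes for subunits of the oxidative phosphorylation complexes were examined in an H3K4me3 ChIP-seq data set of mouse bone marrow-derived macrophages. Members were chosen by symbol among the protein-coding genes of GENCODE M21: the Nduf subunit genes, Sdha to Sdhd, the Uqcr genes, Cox4 to Cox8 and the Atp5 genes. Each was placed in a complex by symbol alone, so Ndufa4 and Ndufa4l2 count in complex I whatever complex their proteins belong to. The rule found 85 of 21938 protein-coding genes, with 37 in complex I, 4 in complex II, 8 in complex III, 18 in complex IV and 18 in complex V. They carry 84 symbols, since Atp5o has 2 gene models. The cells were primary macrophages grown from C57BL/6J marrow and given no stimulus, and they form the only group, with 2 biological replicates. Both replicates started from 10 ng of DNA and share 1 donor entry. The labels do not say whether separate animals were used and record neither sex nor age, so differences between the replicates measure the spread between these libraries, which may be technical.

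Oxidative phosphorylation passes electrons from NADH and succinate through complexes I to IV to oxygen, and the proton gradient this builds drives ATP synthase, complex V. Most subunits are encoded in the nucleus and are needed in nearly every cell, but several complex IV subunits have a second gene used in muscle, lung or testis. H3K4me3 is laid down around the starts of active and poised genes, mostly over CpG-rich promoters. It reports the state of a promoter and not the amount of transcript or protein.

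The deposited lists held 20031 peaks for replicate 1 and 16376 for replicate 2, and sequencing depth is unknown because the lists give no counts. Markers of the labelled cell type were present at the promoter level: 10 of 10 macrophage markers had a peak in both replicates. Of 21 markers of B cells, T cells, neutrophils, stroma, muscle and testis germ cells, 0 had one. A gene counts as marked here when both lists have a peak that overlaps the window of 1 kb before or after any of its annotated starts. Of all protein-coding genes 53.5% had such a peak in replicate 1, 49.5% in replicate 2 and 49.5% in both.

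Nearly every gene for a constitutive subunit carried H3K4me3. Of the 85 members 77 (90.6%) were marked in both replicates, beside 49.5% of all protein-coding genes. The counts were 36 of 37 in complex I, 4 of 4 in complex II, 8 of 8 in complex III, 12 of 18 in complex IV and 17 of 18 in complex V. Replicate 1 alone marked 78 members and replicate 2 alone 77, and the member that differed was Cox6a2, the heart and skeletal muscle form of subunit 6A. The 7 members with no peak in either list were Cox4i2, Cox6b2, Cox7b2, Cox8b, Cox8c, Ndufa4l2 and the second gene model of Atp5o. That model has 1 transcript with an incomplete 5′ end in the annotation, so its listed start at chr16:91926982 need not be a promoter, and the full Atp5o gene was marked. Apart from it and 8 isoforms known for restricted expression, 76 of 76 members were marked.

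The isoform families separated the members most sharply. Each family pairs a widely used gene with a form restricted to certain tissues or conditions: Cox4i2 in lung, Cox6a2, Cox7a1 and Cox8b in heart and skeletal muscle, Cox6b2, Cox7b2 and Cox8c in testis, and Ndufa4l2 under low oxygen. All 7 wide forms were marked, and 1 of the 8 restricted forms was, Cox7a1. The upstream sequences of 4 of these pairs are shown because they set the wide and the restricted copy of 1 subunit side by side; of the restricted copies shown, Cox7a1 was marked and the others were not. They are the 250 bases before the RefSeq start on GRCm38.p6 (mm10), 5′ to 3′ on the gene's strand, and capitals mark CpG dinucleotides.
Cox7a2 (chr9:79759854-79760103, minus strand): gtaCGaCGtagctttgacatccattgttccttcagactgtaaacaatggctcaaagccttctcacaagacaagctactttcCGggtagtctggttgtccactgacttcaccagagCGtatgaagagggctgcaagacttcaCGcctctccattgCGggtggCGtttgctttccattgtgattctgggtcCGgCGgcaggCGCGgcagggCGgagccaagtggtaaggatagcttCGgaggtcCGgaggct
Cox7a1 (chr7:30183921-30184170, plus strand): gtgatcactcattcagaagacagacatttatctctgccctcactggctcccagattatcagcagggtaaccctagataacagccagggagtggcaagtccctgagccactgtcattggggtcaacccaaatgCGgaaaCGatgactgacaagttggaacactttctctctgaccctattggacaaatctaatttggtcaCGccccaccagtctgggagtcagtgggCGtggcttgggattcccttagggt
Cox8a (chr19:7217617-7217866, minus strand): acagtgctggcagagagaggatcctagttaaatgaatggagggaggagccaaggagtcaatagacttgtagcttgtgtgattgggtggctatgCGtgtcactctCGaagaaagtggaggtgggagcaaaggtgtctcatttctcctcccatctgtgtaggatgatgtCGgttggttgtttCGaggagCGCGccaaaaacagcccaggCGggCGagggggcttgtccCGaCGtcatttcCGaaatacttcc
Cox8b (chr7:140900447-140900696, minus strand): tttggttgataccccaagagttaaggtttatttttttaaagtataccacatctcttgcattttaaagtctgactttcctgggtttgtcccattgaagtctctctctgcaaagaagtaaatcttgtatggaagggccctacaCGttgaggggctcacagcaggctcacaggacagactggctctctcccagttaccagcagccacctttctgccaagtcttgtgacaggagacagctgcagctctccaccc
Cox6b1 (chr7:30626115-30626364, minus strand): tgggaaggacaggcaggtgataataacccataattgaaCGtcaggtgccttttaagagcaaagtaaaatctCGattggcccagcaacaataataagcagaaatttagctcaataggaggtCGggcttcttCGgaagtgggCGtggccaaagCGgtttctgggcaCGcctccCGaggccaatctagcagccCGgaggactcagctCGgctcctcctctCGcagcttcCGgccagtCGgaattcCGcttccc
Cox6b2 (chr7:4753095-4753344, minus strand): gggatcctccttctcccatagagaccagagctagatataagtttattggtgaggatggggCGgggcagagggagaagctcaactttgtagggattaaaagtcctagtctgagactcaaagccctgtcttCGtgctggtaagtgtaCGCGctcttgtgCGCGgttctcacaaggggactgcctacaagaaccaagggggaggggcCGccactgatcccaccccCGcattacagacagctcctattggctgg
Cox7b (chrX:106015450-106015699, plus strand): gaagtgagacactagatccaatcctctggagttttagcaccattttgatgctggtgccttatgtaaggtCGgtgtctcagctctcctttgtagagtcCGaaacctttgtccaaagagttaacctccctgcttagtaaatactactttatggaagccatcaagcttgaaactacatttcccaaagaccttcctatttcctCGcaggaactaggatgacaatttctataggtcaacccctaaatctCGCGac
Cox7b2 (chr5:71548206-71548455, minus strand): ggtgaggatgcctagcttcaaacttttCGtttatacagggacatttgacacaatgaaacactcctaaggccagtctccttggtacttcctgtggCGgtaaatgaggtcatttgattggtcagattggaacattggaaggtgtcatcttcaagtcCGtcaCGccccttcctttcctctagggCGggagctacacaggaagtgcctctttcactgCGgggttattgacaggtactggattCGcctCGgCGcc
These stretches hold 14 CpG in Cox7a2 and 4 in Cox7a1, 11 in Cox8a and 1 in Cox8b, and 14 in Cox6b1 and 8 in Cox6b2. The order is turned in the last pair, with 5 CpG in the marked X-linked Cox7b and 9 in the unmarked Cox7b2. For scale, the median over promoters of marked coding genes was 16 and over those of unmarked genes 4, and marked members had a median of 14.

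Cox7a2 and Cox7a1, the wide and the muscle form of subunit 7A, were the clearest contrast with a peak on both sides. The widest promoter domain of Cox7a2, formed by joining peaks up to 1000 bp apart, spanned 2144 bp in replicate 1 and 2130 bp in replicate 2, and its strongest peak had a fold of 61.3 and 22.4. The authors gave this fold for each peak, relative to a level the lists do not state, and values were compared within a list only. Cox7a1 had domains of 956 and 496 bp and folds of 10.3 and 4.18. Ranked among the 10869 coding genes marked in both replicates, the Cox7a1 fold lay at percentile 2.63 in replicate 1 and 3.24 in replicate 2, the lowest of the marked members in each. Whether such a weak peak comes from few marked cells or from little mark per cell cannot be told apart in bulk chromatin.

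The muscle gene Cox6a2 was weaker still. Its only peak, in replicate 1, covered 612 bp at chr7:128205817-128206428 with a fold of 3.92, and the nearest peak of replicate 2 was 30679 bp from its nearest start. The authors' pooled list did not mark it. Its wide partner Cox6a1 had domains of 2297 and 1864 bp and folds of 53.2 and 19.6.

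The other restricted forms lay at a distance from any peak. The nearest peaks of replicates 1 and 2 were 14629 and 16603 bp from the nearest start of Cox4i2, 8248 and 17285 bp from that of Cox8b, and 10783 and 11215 bp from that of Cox6b2. For Cox8c the distances were 20115 and 20231 bp, and for Cox7b2 they were 618596 and 618853 bp. Ndufa4l2, the relative of Ndufa4 known to be induced by hypoxia, had the closest neighbours, at 2122 and 2551 bp. All of these restricted forms except Cox6a2 and Cox7a1 thus had neither replicate's peak within reach of a start.

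Their wide partners had folds above, or close to, the medians of all marked genes, 38.9 in replicate 1 and 14.9 in replicate 2. Cox6b1 reached 57.4 and 27.3, Cox8a 51.0 and 18.3, Ndufa4 45.3 and 18.8, and Cox7b 42.0 and 15.0. Cox4i1, the main form of the regulatory subunit 4, had 38.5 and 14.4, the only wide form under the median in each list. Its joined domain was instead among the widest of the members, at 3131 and 2605 bp.

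**Figure D1:**
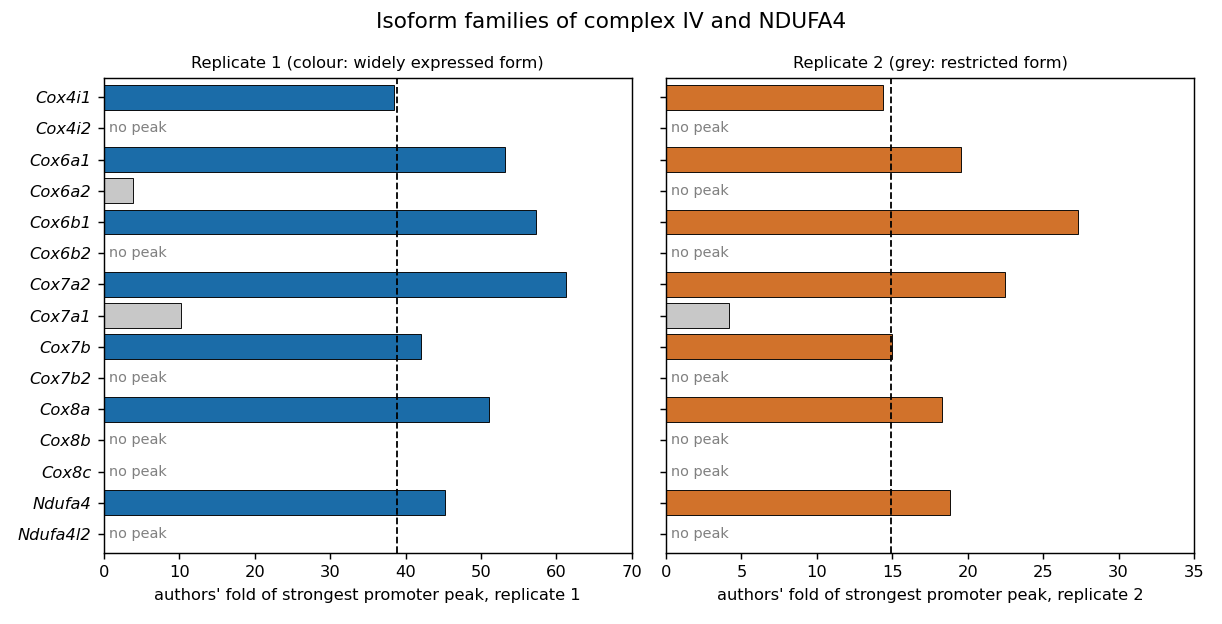
Authors' fold of the strongest promoter peak (linear axis, no unit) for the isoform families in replicate 1 (left) and replicate 2 (right). Coloured bars are widely used forms, grey bars restricted forms, and dashed lines the median of all marked coding genes (38.9 and 14.9). Only Cox7a1 among restricted forms has a bar in both panels (10.3 and 4.18).

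Complex I oxidises NADH and has a catalytic core surrounded by supernumerary subunits. All 7 nuclear core genes of the list and all 28 supernumerary genes were marked, with median mean widths (the mean of the replicates' widths for each gene) of 2208.5 and 1775.75 bp. Ndufa4 and Ndufa4l2, counted in complex I by symbol, were left out of both sets. The widest domain lay at Ndufa13, a supernumerary subunit also known as GRIM-19, with 3153 and 3046 bp. Its windows also hold the starts of Yjefn3, 154 bp away on the same strand, and of Tssk6. Ndufb11, another supernumerary subunit, had 3044 and 2645 bp. The narrowest were Ndufc1, with 1123 and 836 bp, and Ndufb4, with 1275 and 1080 bp. Ndufc1 was narrow but strong: its fold of 57.4 and 24.7 lay at percentiles 94.5 and 95.4.

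At Ndufb10, a supernumerary subunit gene, the widest domains of the replicates were separate domains. The widest in replicate 1, 2809 bp, was that of the neighbouring Rps2 and Rnf151, while the domain at its own start spanned 1510 and 1149 bp. The replicates' widest domains did not overlap at 2 of 77 members, Ndufb10 among them, and at 105 of all marked genes.

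Complex II, succinate dehydrogenase, also works in the citric acid cycle and is the only complex with all its subunits encoded in the nucleus. Its 4 genes were marked, and their folds ranked highest of the complexes, with median percentiles of 96.1 and 95.0. Sdhc, a membrane anchor subunit, had folds of 60.5 and 27.8 and a domain of 1697 and 1457 bp. The other anchor gene, Sdhd, had 58.1 and 23.9, and the iron-sulfur gene Sdhb 59.6 and 25.1. Sdha, the flavoprotein gene that oxidises succinate, was the lowest of the 4 at 42.4 and 17.9. Sdhd (2767 and 2239 bp) and Sdha (2503 and 2210 bp) had the wider domains, and Sdhb had 2101 and 1124 bp, wider than Sdhc in replicate 1 and narrower in replicate 2. Sdhb differed most between the replicates, by a ratio of 1.87.

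Complex III passes electrons from ubiquinol to cytochrome c. All 8 genes were marked. Uqcrh, the hinge subunit, had the widest mean domain of all marked members, 3722.5 ± 182 bp (SD, n = 2), with 3851 and 3594 bp in the replicates. It shares the window with Lrrc41, 198 bp away in the opposite direction, and a domain over a shared window cannot be given to 1 of the genes. Uqcr10 followed with 2645 and 2323 bp and Uqcrc2, a core protein gene, with 2331 and 2097 bp. The other core protein gene, Uqcrc1, had the narrowest domain, 1159 and 1127 bp, and the Rieske protein gene Uqcrfs1 1849 and 1626 bp. Uqcr11, a small accessory subunit, had the highest mean rank of fold of all members, with folds of 66.5 and 27.4 at percentiles 99.8 and 98.7.

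Complex IV, cytochrome c oxidase, had the most unmarked members, all of them restricted isoforms. Among its 12 marked genes the widest domains lay at Cox4i1, at Cox5a (2542 and 2269 bp) and at Cox7a2, and the narrowest at Cox7a1 and Cox7b (1571 and 1244 bp). Cox7c, with no isoform pair in the list, had 1529 and 1319 bp and folds of 47.6 and 22.8. Cox7a2l, whose protein joins complexes III and IV into supercomplexes, had no peak of either replicate within 1 kb of its 5′ end, and was marked at a start 3000 bp inside the gene, where the domain spanned 2224 and 1495 bp with folds of 42.4 and 16.8.

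Complex V makes ATP, with a catalytic F1 head and a membrane-bound Fo rotor and stalk. All 5 F1 genes were marked, as were 11 further ATP synthase genes of the list and Atp5s, the coupling factor B gene. The median mean width, 2264 bp, was the largest of the 5 complexes. Atp5j had the widest domain, 2821 and 2724 bp, which also covers the start of Gabpa 31 bp away, and Gabpa encodes a factor known to regulate nuclear mitochondrial genes. Atp5f1 had 2731 and 2289 bp, and Atp5b, the catalytic beta subunit, 2591 and 2358 bp. The narrowest lay at Atp5e, the F1 epsilon subunit, with 953 and 945 bp, and at Atp5mpl with 1209 and 1128 bp. The folds of Atp5k were 63.1 and 28.5, the second highest mean rank of the members.

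The 3 genes for the identical c-ring subunit are copies that differ in their promoters. Atp5g1 had folds of 35.9 and 14.6, Atp5g2 of 45.0 and 16.4, and Atp5g3 of 25.4 and 11.0. Atp5g3 was thus among the 3 lowest members by mean rank, at percentiles 20.5 and 28.5. Atp5g2 had the largest difference in width of all members, 2735 bp against 942 bp. There the peak at an inner start (chr15:102671127) and a weak peak at the 5′ end with folds of 10.8 and 3.26 were joined in replicate 1 and stood as separate domains of 942 and 572 bp in replicate 2.

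**Figure D2:**
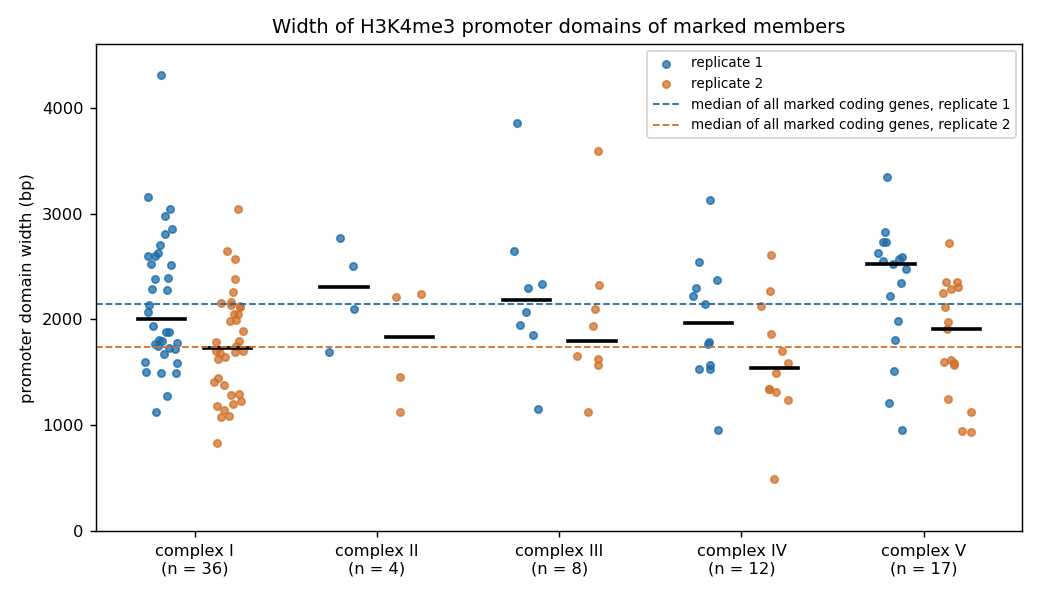
Width of the widest joined promoter domain (bp) of each marked member by complex, in replicate 1 (blue) and replicate 2 (orange). Black bars are medians and dashed lines the medians of all marked coding genes (2149 and 1741 bp). The complex V medians lie above the dashed line of each replicate and the complex IV medians below it.

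The members' domains were of ordinary width and varied little. The median was 2224 bp in replicate 1 and 1703 bp in replicate 2, beside 2149 and 1741 bp over all marked coding genes. For the mean of the replicates the median was 1966 bp and the interquartile range ran from 1577 to 2379 bp, beside 1946.5 bp and 1430.5 to 2546.5 bp. Divided by the median, the interquartile range was 0.408 for members and 0.573 for all marked genes. Domains of 4000 bp or more in both replicates occurred at 0 of 77 members and at 343 (3.16%) of all marked genes. All 77 were wider in replicate 1, as were 98.7% of all marked genes, with a median ratio of 1.16 for members. The ratio reached 1.5 at 6 members, among them Atp5g2 (2.90), Ndufb10 (2.44), the full Atp5o gene (2.08), Cox7a1 (1.93) and Sdhb. It was smallest at Ndufa9, Cox7a2 and Atp5e, at 1.01 for each.

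The folds, by contrast, ranked high. Members had a median fold of 48.0 in replicate 1 and 20.0 in replicate 2, beside 38.9 and 14.9 over all marked genes, which placed the median member at percentiles 75.7 and 79.7. In both replicates 36 of 77 members (46.8%) lay above percentile 75, beside 20.9% of all marked genes, and 61 (79.2%) lay above the median, beside 45.8%. Only Cox7a1 and Ndufa1 lay under percentile 25 in both, beside 22.6% of all marked genes. By complex the median percentiles in replicates 1 and 2 were 75.4 and 79.9 for complex I, 80.9 and 88.6 for complex III, 72.4 and 71.0 for complex IV and 67.5 and 74.8 for complex V. Across the 77 members Spearman's rho between the replicates was 0.915 for fold and 0.792 for width. This describes genes of the same 2 libraries, which are not independent samples.

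**Figure D3:**
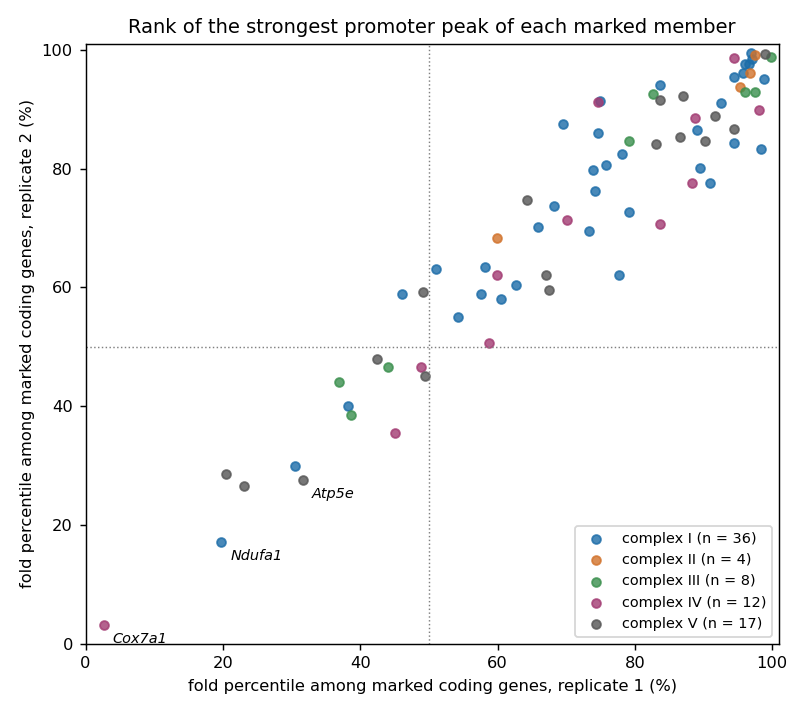
Percentile of each marked member's strongest promoter peak among the 10869 marked coding genes, replicate 1 (horizontal) against replicate 2 (vertical), coloured by complex, with dotted lines at the median. Of the 77 points 61 lie above both medians, and Cox7a1 (2.63 and 3.24) stands lowest.

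Strong peaks with short domains occurred at a minority of members, but at a larger share than over all marked genes. In both replicates 17 members (22.1%) combined a fold above percentile 75 with a width below the median, beside 5.66% of all marked genes. They came from every complex: Ndufa3, Ndufa5, Ndufa8, Ndufb6, Ndufb8, Ndufc1, Ndufs5 and Ndufv3 in complex I, Sdhb and Sdhc in II, Uqcr11 and Uqcrb in III, Cox5b and Cox6b1 in IV, and Atp5j2, Atp5k and Atp5mpl in V. Width and fold were nearly unrelated across members, with a Spearman's rho of -0.00416 in replicate 1 and 0.0448 in replicate 2, beside 0.398 and 0.479 across all 10869 marked genes.

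The cover of members and of all marked genes was compared by position around the 5′ end. Peaks of replicate 1 covered the position 500 bp downstream of the 5′ end at 96.1% of marked members and that at 1000 bp at 90.9%, beside 85.3% and 73.4% of all marked genes. At 1500 bp the cover fell to 15.6% of members, beside 36.9%, and at 2000 bp to 2.60%, beside 19.1%. Replicate 2 had 92.2%, 71.4%, 9.09% and 1.30% at these positions, beside 77.7%, 59.1%, 25.6% and 12.3%. Members thus had more cover than all marked genes at 500 and 1000 bp and less at 1500 and 2000 bp. On the upstream side, the position 1000 bp before the 5′ end was covered at 29.9% of members in replicate 1 and 20.8% in replicate 2, beside 26.9% and 19.4%. Among members with an unshared window and a 5′ end inside the domain, the domain reached a median of 454 bp upstream and 1317 bp downstream in replicate 1 (41 members), and 593 and 1120 bp in replicate 2 (35 members). It was longer on the downstream side in 97.6% and 97.1% of them, beside 92.0% and 91.1% of all such genes.

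**Figure D4:**
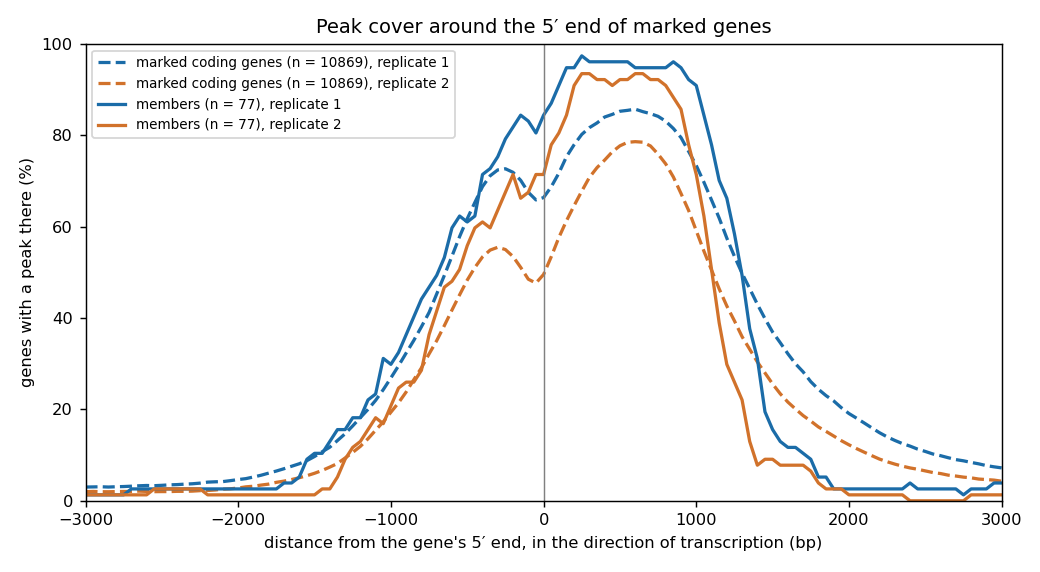
Share of marked genes (%) with a peak at each distance (bp) from the gene's 5′ end in the direction of transcription, for members (solid, n = 77) and all marked coding genes (dashed, n = 10869) in each replicate. The solid lines lie above the dashed ones at 500 and 1000 bp and below them at 1500 and 2000 bp.

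Many members have several annotated starts, up to 14 in Ndufv1, and not all were marked. Of the 353 starts of marked members 284 had a peak of both replicates in the window and 67 a peak of neither. Every start was marked in 42 members and at least 1 start was unmarked in 35. These counts are given without those of all marked coding genes, so they cannot be read as particular to members. Atp5d and Cox7a2l were among the members marked only at a start other than the 5′ end of the gene. At Atp5d, the F1 delta subunit, the 5′ end had a peak of 1270 bp with fold 5.60 in replicate 1 only, while the inner starts had domains of 2341 and 1591 bp with folds of 38.7 and 14.1.

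Shared windows were common. Another protein-coding gene starts within the windows of 35 members (41.2%), beside 14.6% of all protein-coding genes, and among marked genes the shares were 44.2% for members and 25.1% overall. By complex the counts were 18 of 37 in complex I, 3 of 4 in II, 4 of 8 in III, 1 of 18 in IV and 9 of 18 in V. Both models of Atp5o are in this count only because each lies in the other's window, which leaves 33 members beside a gene of another symbol. In 28 members (32.9%) the neighbour lies head to head, transcribed away from the member on the other strand, beside 9.85% of all coding genes. In 25 of these members the starts are 300 bp or less apart, a count that was not made over all coding genes.

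Several neighbours encode parts of the mitochondrion or of the ribosome. Ndufb5 lies 20 bp from Mrpl47 and Ndufs6 29 bp from Mrpl36, both genes of mitochondrial ribosomal proteins. Sdhd lies 98 bp from Timm8b, which encodes a mitochondrial import chaperone. Ndufa7 lies 10 bp from the ribosomal protein gene Rps28, and Ndufs1 lies 3 bp from Eef1b2, an elongation factor gene. The partner Gdf9, an oocyte growth factor gene 192 bp from Uqcrq, is known for expression in another cell type, yet by the window rule a peak at the member also marks it. The 34 marked members with a shared window had a median mean width of 2370.5 bp and the 43 others 1728 bp, beside 2299.75 and 1812.5 bp over all marked coding genes of each kind. The 34 include members such as Ndufb8 and the full Atp5o gene, whose domains lie at a start other than the shared one. Uqcrh, Ndufa13, Cox4i1 and Ndufb11, among the 5 widest members, have a shared window.

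**Figure D5:**
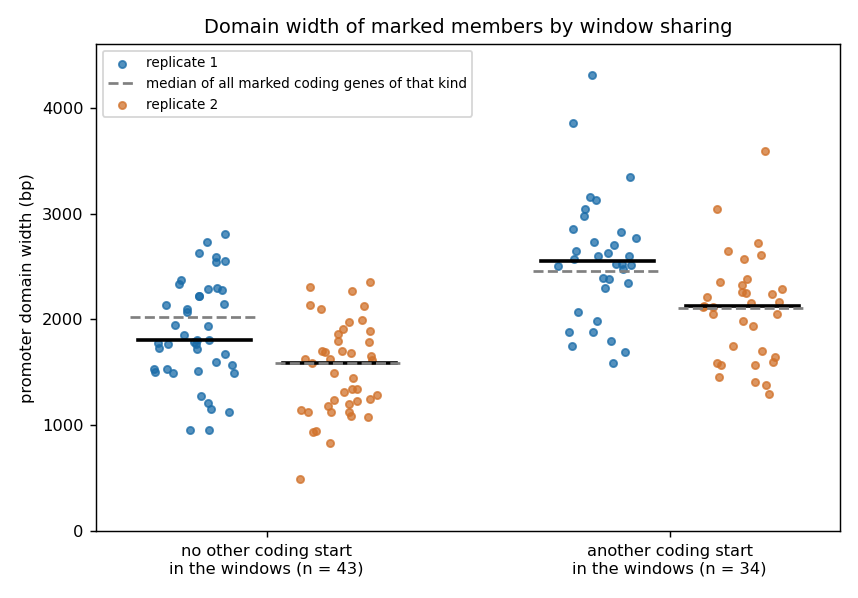
Domain width (bp) of marked members without (n = 43) and with (n = 34) another coding start in a window, in replicate 1 (blue) and replicate 2 (orange). Black bars are the members' medians and dashed lines those of all marked coding genes of the same kind, and the points on the right sit higher in both replicates.

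Marking of members went with CpG content as it did across the genome, at a higher level. Within 1000 bp of the 5′ end, upstream and downstream, the ratio of observed to expected CpG had a median of 0.598 in members and 0.474 in all coding genes, and 0.309 in the restricted isoforms against 0.607 in the wide ones. Divided at the tertiles of all coding genes, 2 of 5 members in the lowest, 34 of 39 in the middle and 41 of 41 in the highest tertile were marked, beside 12.1%, 56.0% and 80.5% of all genes. Without the restricted isoforms and the second Atp5o model, 2 of 2, 33 of 33 and 41 of 41 were marked. Every unmarked member is among the genes left out there, so these counts cannot show whether marking varied with CpG content. Cox7a2l (0.182), a marked member of the lowest tertile, was marked at an inner start, so the ratio at its 5′ end does not describe the marked promoter.

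Motifs of factors known to regulate nuclear mitochondrial genes were sought in the RefSeq promoters, from 250 bases before to 50 after the start, on both strands. The table holds 71 promoters of 66 members and 20150 promoters of all coding genes. Atp5a1, Atp5f1, Atp5mpl, Atp5s, Cox4i1, Cox4i2, Cox6a2, Cox6c, Cox8c, Ndufa2, Ndufa4l2, Ndufb9, Ndufs1, Sdhc, Uqcrb, Uqcrc2 and Uqcrq are among the members with no entry. Stretches from 4 members with motifs of more than 1 factor are shown because they lie wholly upstream of the RefSeq start. By the GENCODE starts the Atp5j stretch lies inside the gene, whose 5′ end is at chr16:84835625. The Atp5h and Cox6a1 stretches reach into the gene past the 5′ ends at chr11:115419962 and chr5:115348981. The Sdhd stretch also holds the start of Timm8b at chr9:50603910. Capitals mark the letters of a match on either strand, on GRCm38.p6, 5′ to 3′ on the gene's strand.
Atp5j (chr16:84835026-84835069, minus strand): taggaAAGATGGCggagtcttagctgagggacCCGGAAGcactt
Sdhd (chr9:50603884-50603933, minus strand): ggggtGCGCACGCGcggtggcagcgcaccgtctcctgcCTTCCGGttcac
Atp5h (chr11:115419946-115420065, minus strand): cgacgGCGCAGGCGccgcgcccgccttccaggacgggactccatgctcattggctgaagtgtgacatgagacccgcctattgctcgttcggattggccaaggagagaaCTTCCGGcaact
Cox6a1 (chr5:115348963-115349125, minus strand): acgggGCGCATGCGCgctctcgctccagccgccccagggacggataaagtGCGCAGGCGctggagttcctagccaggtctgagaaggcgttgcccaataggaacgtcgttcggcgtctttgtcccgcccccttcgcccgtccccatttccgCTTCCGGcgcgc
In Atp5j the capitals are a match of the YY1 motif and then of the ETS motif, and in the other 3 they are matches of the NRF-1 motif and then of the ETS motif. The first run of capitals in Cox6a1 holds overlapping NRF-1 matches of both strands. A match describes letters and is not evidence of binding.

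The NRF-1 motif (GCGCANGCG) occurred in 29.6% of member promoters, beside 8.9% of all coding promoters and 14.3% of those of marked genes. The YY1 motif (AANATGGC) occurred in 22.5%, beside 6.47% and 9.14%. For the ETS motif bound by GABP (CCGGAAG) the share was 22.5%, beside 11.9% and 19.3%. At least 1 of these 3 was present in 60.6% of member promoters, beside 23.6% of all and 36.3% of marked ones, and 14.1% held at least 2 kinds, beside 3.49% and 6.12%. Members in the table numbered 32, 3, 5, 13 and 13 in complexes I to V. In this order the NRF-1 motif was in 8, 2, 2, 1 and 7 of them. The YY1 motif was in 12, 0, 0, 1 and 3, and the ETS motif in 4, 2, 2, 3 and 5. The higher shares of NRF-1 and YY1 matches were thus not seen in complex IV. The longer motif of the estrogen-related receptors (TCAAGGTCA) was found in Atp5g3 and Sdhd, in 2.82% of member promoters beside 0.337% of all.

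Motifs of general promoter factors gave no common direction. The GGGCGG box of the SP and KLF factors was in 38.0% of member promoters, beside 47.8% of all and 63.7% of marked ones. The CCAAT box was in 42.3%, beside 37.8% and 38.2%, and TATAAA in 11.3%, beside 12.1% and 6.69%. In 1 member promoter matches of different motifs overlapped.

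The 3 X-linked members were marked, beside 34.1% of all X-linked and 50.7% of all autosomal protein-coding genes. Ndufa1, a small supernumerary subunit of complex I, had folds of 25.0 and 8.43 at percentiles 19.7 and 17.2, the lowest after Cox7a1, with a domain of 2602 and 2157 bp. Ndufb11 had 34.2 and 13.2, and Cox7b 42.0 and 15.0. The median over all marked X-linked coding genes was 27.8 and 10.2, beside 39.4 and 15.1 on the autosomes, and Ndufb11 and Cox7b lay above the X-linked median in both replicates while Ndufa1 lay below it.

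Genes that build or regulate the complexes were marked too, beside 49.5% of all protein-coding genes. Of 47 assembly factors 47 were marked, with a median mean width of 1800.5 bp and median fold percentiles of 61.1 and 62.8. The widest were Ndufaf3 (4863 and 2657 bp), Cox20 and Cox14. Of 11 electron carriers and further subunits outside the symbol rule 9 were marked, and the widest were Atpif1, the ATP synthase inhibitor (5298 and 1356 bp), Etfdh and the cytochrome c gene Cycs. The unmarked ones were the testis cytochrome c gene Cyct, with the nearest peaks 9360 and 9575 bp away, and Slc25a31, the testis ADP/ATP carrier gene, at 35574 and 35670 bp. These are forms with a wide counterpart, Cycs and Slc25a5, and the counterparts were marked. Slc25a4, a further ADP/ATP carrier gene not counted here as a wide form, was marked too. All 12 regulators were marked, among them Nrf1, Gabpa, Yy1, Esrra, Ppargc1a and Tfam, and the widest were Gabpb1 (4090 and 3377 bp), Ppargc1b and Pprc1. Their median mean width was 2672 bp, with median fold percentiles of 42.0 and 48.9.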

How the data were processed

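H3K4me3 ChIP-seq peaks of 2 replicates of 1 group were taken from the deposited peak lists on mm10. Per the deposited provenance texts, the authors called a pseudoreplicated list on each replicate and made a pooled pseudoreplicated and a replicated list from both. Each peak in the deposited lists has a fold, which is a ratio, and −log10 p and q values. For the aligner and the peak caller, name and settings are not given in the sources used, and peak lists hold no counts, so no precision from depth can be given.

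Genes and starts came from GENCODE M21 on 21 chromosomes, sequences and promoters from GRCm38.p6 and RefSeq. Peaks within 1000 bp were joined, width was that of the widest such domain at a window, and the strongest peak in the windows gave the fold. An overlap of 1 bp sufficed. Distances to the nearest peak run from the closest annotated start. Scripts used Python 3.11.15 with numpy 2.4.6, pandas 2.3.3 and scipy 1.17.1, and the overlap and width routine was tested on simulated data.

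No test was made, since 1 group of 2 libraries holds no comparison between conditions: lists are described by counts and medians beside those of all coding genes. Members and lists were chosen with earlier results of these data known. Named genes are the unmarked members, isoform families, the 3 widest and 2 narrowest per complex, the 3 highest and lowest in fold and in width ratio, the 5 widest with shared windows, members with several marked starts, copies, and the 3 widest and the unmarked genes of other lists; others were chosen after their values were seen. Alternatives changed the window, the starts, the overlap, the joining, the peak list, the replicate and the members with shared windows. Some genes that this rule names are not reported here.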

Additional observations from a re-analysis of the deposited data

How the results depend on the processing

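Leaving out 1 replicate gave 77 to 78 marked members, 12 to 13 in complex IV, 1 to 2 restricted isoforms and a median width of 1703 to 2184 bp; Cox6a2 was the added isoform. Leaving out members with a shared window kept 43 marked members, with 18 in complex I, 1 in II, 4 in III and 9 in V, and 28 assembly factors, since fewer genes were counted. Windows of 500 or 2500 bp, an overlap of 200 bp, the 15000 peaks of highest −log10 p, and the authors' pooled and replicated lists each gave 77 marked members. With only the 5′ end of each gene 74 were marked, and Atp5d and Cox7a2l were among those lost. Apart from leaving out a replicate, the median width lay between 1679.5 bp with no joining and 2148 bp in the pooled list, and was 1930 bp with the domain of the strongest peak, an alternative chosen after seeing the data. Members with a shared window numbered 31 with only the 5′ end of each gene and 37 with windows of 2500 bp. The shares of all coding genes at these settings were 12.6% and 18.1%. Depth is unknown, so a weak promoter cannot be told from an unmarked one below the lists' thresholds. No paired analysis was possible because there is 1 group.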
